A study of Homo sapiens with 6 samples.

Results

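The genes described here encode the pore-forming and auxiliary subunits of voltage-gated sodium channels, voltage-gated calcium channels and HCN channels, together with the sodium leak channel NALCN. They were picked out by a rule on gene symbols that uses no measured value, although the group itself was proposed with earlier results of these data known. Of the 18056 genes in the expression table, 36 belonged to the group. The group held 9 sodium channel α genes, 4 sodium channel β genes, 10 calcium channel α1 genes, 4 α2δ genes, 4 calcium channel β genes, 4 HCN genes and NALCN. A filter on low counts kept 31 of the 36 for testing, out of 13842 genes tested in all.

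Sodium channel α subunits carry the current of the action potential upstroke, and β subunits set their gating and surface delivery. Calcium channel α1 subunits fall into the high-voltage-activated L-type (CaV1) and P/Q-, N- and R-type (CaV2) classes, which need α2δ and β subunits for trafficking, and the low-voltage-activated T-type (CaV3) class, which opens near the resting potential and drives burst firing. HCN channels open on hyperpolarisation and carry a pacemaker current, while NALCN passes a steady leak of sodium that sets the resting potential.

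Poly(A) RNA was sequenced from wild-type forebrain organoids, which are self-organising aggregates of neural progenitors, neurons and glia. All 6 libraries came from 1 induced pluripotent stem cell line, DYR0100, and from a single labelled batch. In 3 libraries the organoids had received vehicle, and in 3 they had received 5 µM Aβ42, the aggregation-prone amyloid-β peptide. Both exposures lasted 6 days, and the series is described as having 3 independent biological replicates per condition.

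Libraries held 16465390 to 16742958 estimated counts. The 2 libraries numbered 2 stood apart in TTR, a choroid plexus marker, at 7487 TPM in vehicle replicate 2 and 6581 TPM in Aβ42 replicate 2, against 2805 to 3925 TPM in the other 4. Of the 4 other choroid plexus markers, CLIC6 and KCNJ13 were also highest in those 2 libraries, while FOLR1 and AQP1 did not set both apart. The 10 pan-neuronal markers (4642 to 5280 TPM) were present in every library. In the microglia list C1QA, C1QB, TREM2 and TYROBP were at 0 in all libraries, and 8 muscle markers summed to 2.23 to 3.25 TPM.

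Several of these genes are close paralogs, and a stretch that 2 of them share is printed to show what a read can tell apart. The longest stretch shared by the T-type genes CACNA1G and CACNA1H is coding sequence of 65 bases, which spans a junction between exons 7 and 8 of CACNA1G (chr17:50573105-50575598, plus strand) and exons 8 and 9 of CACNA1H (chr16:1200800-1201718, plus strand), in GRCh38 with GENCODE v29. Capitals mark the 32 bases that CACNA1I also holds.
CACNA1G and CACNA1H: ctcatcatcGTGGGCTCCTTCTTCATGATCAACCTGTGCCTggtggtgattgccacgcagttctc
Of all distinct 50-base stretches in a gene's transcripts, 5.51% in SCN3A, 4.67% in SCN2A, 3.35% in SCN9A and 1.74% in SCN1A occurred in another gene, against 0.168% in CACNA1G, 0.358% in CACNA1H and 0.14% in CACNA1I. At 100 bases, 32 of the 36 genes shared no stretch with another gene, and the other 4 were SCN1A, SCN2A, SCN3A and SCN9A (0.476% to 1.86%). These 4 were also among the 8 genes whose deposited counts were not whole numbers in every library, so their values may hold reads divided between genes, and they are uncertain to that extent.

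Promoter windows were read from RefSeq (GRCh38.p14) as the 250 bases before the annotated start, and 28 of the 36 genes matched an entry. They are shown for CACNA1C, CACNA1I and CACNA2D1, whose levels differed in the test with replicate pairs, on the strand of the gene, with capitals for any match to the SP1 box (GGGCGG), the EGR1 site (GCGNGGGCG) or the E-box (CACGTG) on either strand. The SP1 and EGR1 motifs can overlap each other. The CACNA1C window (chr12:2052737-2052986, plus strand) lies inside the RefSeq span of the gene (1970780 to 2697950), so it does not precede the gene's outermost start. The windows of CACNA1I (chr22:39570503-39570752, plus strand) and CACNA2D1 (chr7:82443957-82444206, minus strand) adjoin the spans of their genes.
CACNA1C: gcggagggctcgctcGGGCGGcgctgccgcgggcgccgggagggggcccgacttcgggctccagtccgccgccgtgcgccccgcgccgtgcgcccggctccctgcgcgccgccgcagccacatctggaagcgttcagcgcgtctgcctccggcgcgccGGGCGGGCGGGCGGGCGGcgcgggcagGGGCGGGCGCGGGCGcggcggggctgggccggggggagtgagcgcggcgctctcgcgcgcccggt
CACNA1I: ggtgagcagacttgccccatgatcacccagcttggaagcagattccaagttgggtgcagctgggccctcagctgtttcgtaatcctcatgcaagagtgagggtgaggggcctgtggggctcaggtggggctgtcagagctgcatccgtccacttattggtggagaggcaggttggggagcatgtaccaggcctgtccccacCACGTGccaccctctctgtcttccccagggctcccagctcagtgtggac
CACNA2D1: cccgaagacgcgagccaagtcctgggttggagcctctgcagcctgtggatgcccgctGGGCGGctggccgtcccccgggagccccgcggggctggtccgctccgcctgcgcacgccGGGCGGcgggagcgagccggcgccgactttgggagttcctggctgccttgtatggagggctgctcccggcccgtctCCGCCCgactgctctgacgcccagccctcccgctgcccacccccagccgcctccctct
The CACNA1C window held 6 SP1 boxes and 1 EGR1 site, and the CACNA2D1 window held 3 SP1 boxes. The CACNA1I window held neither of these motifs and 1 E-box. The SP1 box was present in 18 of the 28 windows (64.3%) against 42.6% of all 35116 windows in the table, and the EGR1 site in 6 of 28 (21.4%) against 8.42%. The median GC content of the 28 windows was 65.6%, against 58.0% over all windows, a difference that the motif shares were not matched for. The TATA box (TATAAA) was found in 1 of 28 windows (3.57%, against 10.7%), that of SCN10A.

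Levels of different genes were compared as TPM, which is scaled for transcript length and library size. The most abundant members were auxiliary subunits. The sodium channel β gene SCN3B stood at 112 TPM in vehicle and 106 TPM in Aβ42 organoids, CACNA2D1 at 96.7 and 81.6 TPM, CACNB3 at 90.3 and 85.7 TPM, and CACNB1 at 67.0 and 69.1 TPM. Among sodium channel α genes, SCN2A (46.8 ± 2.59 TPM in vehicle, SD, n = 3), SCN3A (38.3 ± 3.69) and SCN8A (26.2 ± 1.16) led, and their vehicle values did not overlap one another. SCN2A and SCN3A encode α subunits that predominate in immature neurons, and SCN8A encodes the one that concentrates at the axon initial segment of mature neurons. SCN1A was far lower, at 3.90 ± 0.913 TPM.

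CACNA1H was the most abundant calcium channel α1 gene (32.5 ± 2.49 TPM in vehicle), followed by CACNA1A at 17.2, CACNA1E at 15.6, CACNA1C at 11.1, CACNA1D at 10.2, CACNA1B at 9.66, CACNA1G at 7.45 and CACNA1I at 4.69 TPM. HCN3 led the HCN genes at 35.3 TPM, ahead of HCN2 at 14.2 and HCN4 at 5.73 TPM. NALCN stood at 2.49 TPM.

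**Figure D1:**
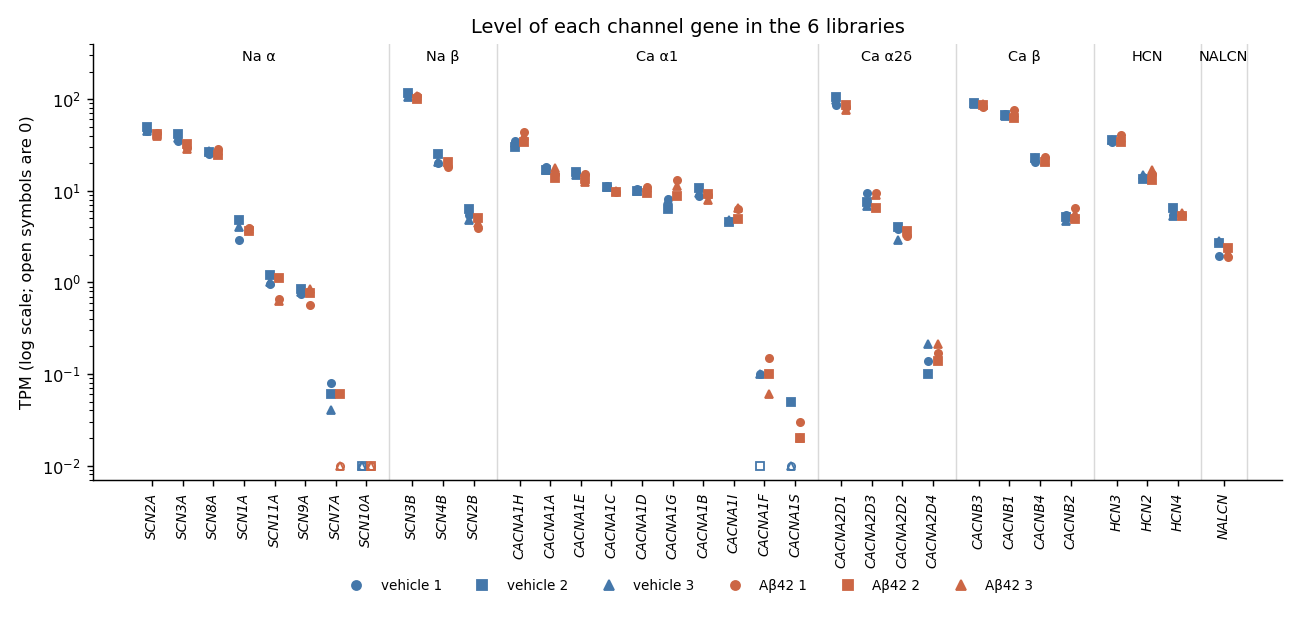
TPM of the channel genes reported here (log axis, italic symbols on the horizontal axis, grouped by subunit family) in 3 vehicle and 3 Aβ42 libraries, 1 symbol per library, with open symbols for values of 0. SCN3B, CACNA2D1 and CACNB3 lie highest, and SCN7A, SCN10A, CACNA1F, CACNA1S and CACNA2D4 lie under 0.3 TPM in all libraries.

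Genes known mainly from other tissues made up most of the 5 that failed the count filter. SCN10A, the sodium channel of nociceptors, had 0 counts in every library. There 3 counts would correspond to 0.179 to 0.182 CPM (counts set relative to the library's total, here not normalised). CACNA1S, the skeletal muscle α1 gene, had 0 to 2 counts, CACNA1F, the retinal one, 0 to 3, SCN7A 0 to 4 and CACNA2D4 4 to 8 counts. The sensory-neuron genes SCN9A (0.790 TPM in vehicle) and SCN11A (1.05 TPM) passed the filter at low levels.

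Groups were compared gene by gene with edgeR's quasi-likelihood test over all 13842 genes, and CPM values were normalised by TMM. In the fit without a block an adjusted p-value of 0.05 was reached by 0 channel genes, and by 0% of all tested genes. The lowest adjusted value among the members was 0.0734, for SCN3A. Unadjusted p-values under 0.05 were found for 7 members, 3 higher with Aβ42 (against 12.4% of all tested genes) and 4 lower (against 11.5%), or 22.6% of the members against 23.9% of all tested genes. The 3 values of a group lay beyond all 3 of the other for 4 members higher with Aβ42 (against 13.6%) and 4 lower (against 13.4%), or 25.8% of members against 27% of all. By these counts, with all 6 libraries, the members together were close to the background, and their median log2 fold change was 0.0066, against 0.0032 over all tested genes. In log2(TPM + 1) those medians were -0.031 and -0.040, so the summed TPM levels compared below are to be read beside this shift.

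Deviations from the group means correlated by 0.388 between the 2 libraries numbered 2. The libraries numbered 1 and 3 correlated as much across numbers (0.154 and 0.177) as within them (0.181 and 0.129), so only number 2 was set apart. In counts over all genes compared, Aβ42 replicate 2 lay nearer to each vehicle library than to either other Aβ42 library. A paired fit, with the replicate number as an added term (a replicate block), stands beside each result that it changed, and its calls rest on this pairing. With the replicate block 6 members passed, 3 higher (against 7.12% of all tested genes) and 3 lower (against 7.05%), or 19.4% of members against 14.2% of all. Of the 10% of tested genes with the greatest relative transcript length, 20.6% passed, and 17 of the 31 tested members belonged to that 10%. The 3 that rose were the T-type genes CACNA1G, CACNA1H and CACNA1I, and the 3 that fell were SCN3A, CACNA2D1 and CACNA1C. Without Aβ42 replicate 2 and without a block, 9 members passed: those 6 with CACNB1, HCN3 and SCN8A, giving 6 higher (against 11.5% of all tested genes) and 3 lower (against 11.6%). Without both libraries numbered 2, an alternative chosen after seeing the data, 5 passed: the 3 T-type genes and CACNB1 higher (against 8.19% of all tested genes) and SCN3A lower (against 8.5%), while CACNA1C (adjusted p = 0.0556) and CACNA2D1 (adjusted p = 0.0800) did not. With any single library other than Aβ42 replicate 2 left out, 0 members passed, and 0% of all tested genes. In organoid RNA measured in bulk, fewer cells of a type and less RNA per cell cannot be told apart.

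**Figure D2:**
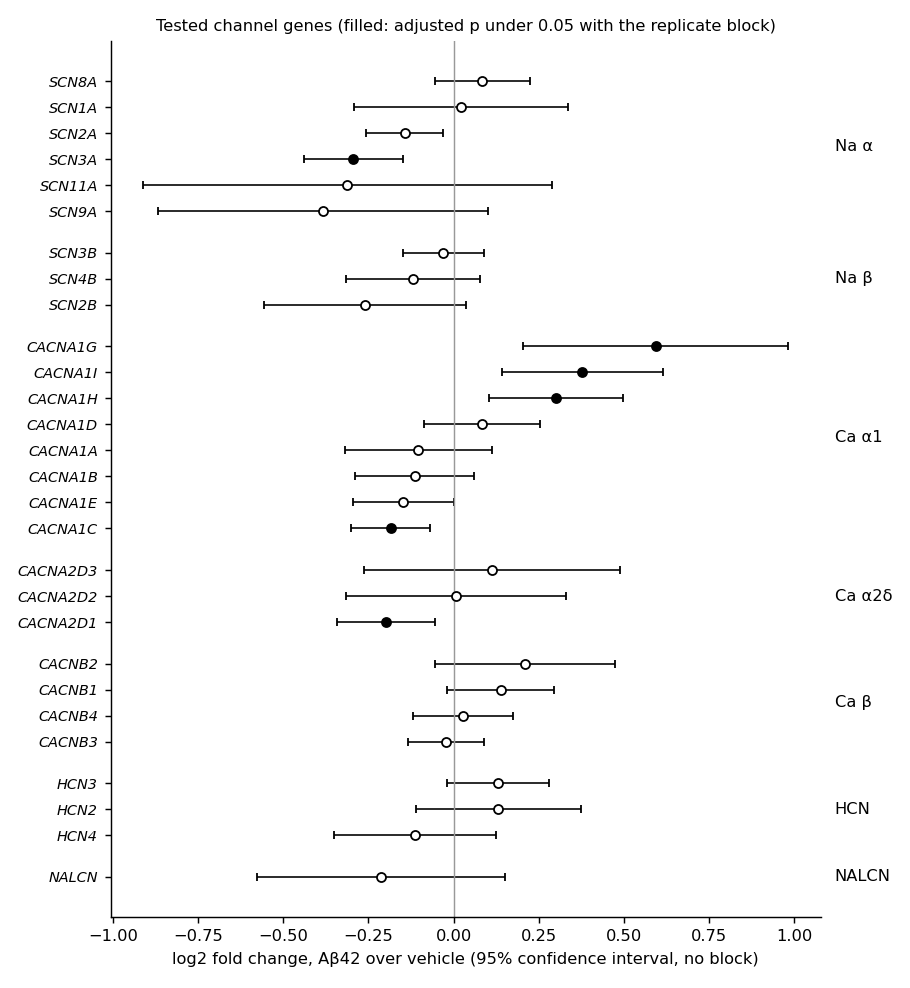
Fitted log2 fold change of the tested channel genes reported here, Aβ42 over vehicle (horizontal axis), with 95% confidence intervals from the fit without a block, grouped by subunit family. Filled points passed an adjusted p-value of 0.05 with the replicate block: CACNA1G (0.59), CACNA1I (0.38) and CACNA1H (0.30) to the right of 0, and SCN3A (-0.29), CACNA2D1 (-0.20) and CACNA1C (-0.18) to the left.

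The 3 T-type genes were each higher in all Aβ42 libraries than in any vehicle library. CACNA1G, which encodes CaV3.1, a T-type α1 subunit of thalamic and cortical neurons, measured 29.3, 22.0 and 27.5 CPM with vehicle and 47.2, 31.1 and 40.7 CPM with Aβ42, here and throughout in the order of replicates 1 to 3. The lowest Aβ42 value was that of replicate 2, whose vehicle counterpart was also the lowest of its group. The log2 fold change was 0.59 ± 0.17 (SE), or 1.51-fold with a 95% confidence interval of 1.15 to 1.98. The adjusted p-value in edgeR's test was 0.108 without the block and 0.000162 with it.

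CACNA1H, which encodes CaV3.2, measured 105.9, 90.6 and 98.9 CPM in vehicle and 134, 106.0 and 124 CPM in Aβ42 organoids. The groups touched without overlapping, since Aβ42 replicate 2 (106.0) and vehicle replicate 1 (105.9) were nearly equal, and on the TPM scale these values crossed (34.2 and 34.8 TPM). The log2 fold change was 0.30 ± 0.09 (adjusted p = 0.1003, and 0.00169 with the replicate block). CACNA1I, which encodes the slowly inactivating CaV3.3, measured 19.6, 19.0 and 20.0 CPM in vehicle and 26.7, 21.0 and 28.4 CPM in Aβ42 organoids. Its vehicle values lay close together, and Aβ42 replicate 2 lay just above them. CACNA1I had a log2 fold change of 0.38 ± 0.11 (adjusted p = 0.0891, and 0.00986 with the block).

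Within pairs of the same replicate number the log2 ratio of Aβ42 to vehicle was 0.69, 0.50 and 0.56 for CACNA1G, 0.34, 0.23 and 0.32 for CACNA1H, and 0.45, 0.15 and 0.50 for CACNA1I. Positive ratios in every pair follow from groups that do not overlap, and add nothing to that. Pair 2 was the smallest for each of the 3 genes. The summed T-type level was 47.6, 40.8 and 45.5 TPM in vehicle and 62.9, 47.9 and 56.9 TPM in Aβ42 organoids, a ratio of means of 1.25. CACNA1H took the larger part of the sum, at 3.35 to 4.74 times the TPM of CACNA1G and 5.98 to 7.52 times that of CACNA1I in each library. Exons of CACNA1H overlap TPSG1 on the opposite strand, and whether the counting used strand is not given in the sources used here.

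**Figure D3:**
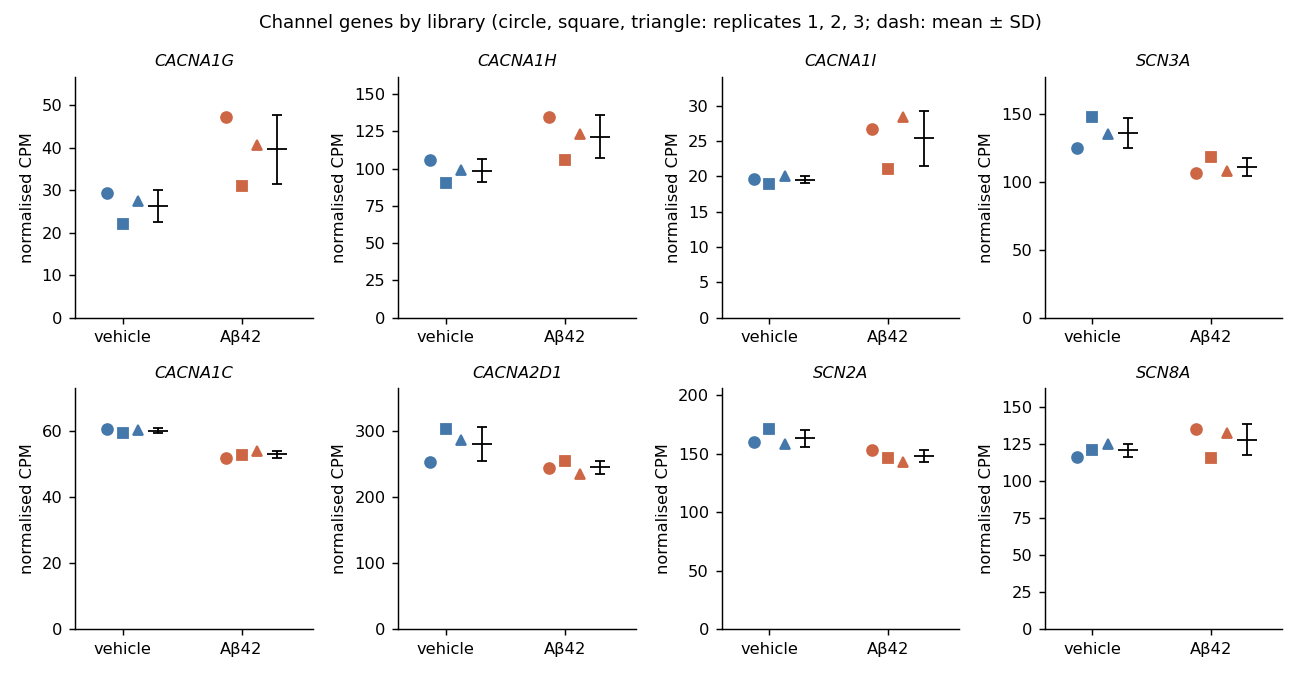
Normalised CPM (vertical axis from 0) of 8 channel genes in 3 vehicle and 3 Aβ42 libraries, with circles, squares and triangles for replicates 1, 2 and 3 and a dash with bars for the mean ± SD. The T-type genes are higher with Aβ42, SCN3A, CACNA1C and SCN2A lower without overlap, CACNA2D1 overlaps by 1 library (255 against 254 CPM), and SCN8A overlaps.

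Among sodium channel α genes the embryonic subunit gene SCN3A differed most clearly. It measured 125, 147 and 135 CPM in vehicle and 107, 118 and 108 CPM in Aβ42 organoids. All Aβ42 values lay below all vehicle values, and replicate 2 was the highest of each group. The fitted difference was a log2 fold change of -0.29 ± 0.07, or 0.816-fold (95% interval 0.737 to 0.902), with an adjusted p-value of 0.0734 without the block and 0.00166 with it.

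SCN2A measured 160, 172 and 158 CPM in vehicle and 153, 147 and 143 CPM in Aβ42 organoids. The groups did not overlap, but SCN2A did not pass in either fit (log2 fold change -0.14 ± 0.05, adjusted p = 0.131, and 0.0774 with the block). SCN8A measured 116, 121 and 125 CPM in vehicle and 135, 116 and 133 CPM in Aβ42 organoids. Aβ42 replicate 2 lay below all vehicle libraries and the other 2 above them. Its log2 fold change was 0.08 ± 0.06 (adjusted p = 0.431), and without Aβ42 replicate 2 it was 0.15 (adjusted p = 0.0411).

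SCN1A, SCN9A and SCN11A had wider errors. SCN1A, a subunit gene of inhibitory neurons in the mature cortex, measured 14.8 to 23.2 CPM in vehicle and 19.0 to 20.2 CPM in Aβ42 organoids (log2 fold change 0.02). SCN9A measured 2.87 to 3.28 CPM in vehicle and 1.77 to 2.85 CPM in Aβ42 organoids, which did not overlap in CPM (log2 fold change -0.38, 95% interval -0.87 to 0.10). In TPM the SCN9A groups overlapped, and for SCN11A (-0.31) the groups overlapped in CPM through Aβ42 replicate 2 at 2.91.

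Summed levels of pan-neuronal and excitatory neuron markers were lower with Aβ42, as SCN2A and SCN3A were, and those of inhibitory neuron markers were not. The summed level of the 10 pan-neuronal markers was 4959 to 5280 TPM in vehicle and 4642 to 4854 TPM in Aβ42 organoids. At an unadjusted p-value under 0.05, 1 marker was higher (against 12.4% of all tested genes) and 3 lower (against 11.5%). Of the 10, 4 had positive fold changes. The 7 excitatory neuron markers summed to 1405 to 1455 TPM in vehicle and 1309 to 1368 TPM in Aβ42 organoids, with 3 lower (against 11.5%). Of the 7, 1 had a positive fold change, SLC17A7 (log2 fold change 0.14). Markers of cycling cells summed to 404 to 481 and 256 to 362 TPM, and all 7 of them were lower at that threshold (against 11.5%). Inhibitory neuron markers were at 9.71 to 23.8 and 20.0 to 28.1 TPM, and none of the 5 tested reached that threshold. Radial glia markers summed to 7263 to 7555 TPM with vehicle and 7497 to 7933 TPM with Aβ42, most of it FABP7 (4888 to 5661 TPM). Of the 7, 1 was higher at that threshold (FABP7, against 12.4%) and 2 were lower (HOPX and NES, against 11.5%). Astrocyte markers summed to 552 to 636 and 423 to 568 TPM, with 1 of the 6 higher (against 12.4%) and 2 lower (against 11.5%). Oligodendrocyte lineage markers summed to 3.40 to 4.60 and 2.77 to 3.42 TPM, with 0 of the 3 tested higher and 1 lower (against 11.5%). With the replicate block 2 pan-neuronal, 3 excitatory neuron, 7 cycling cell, 2 radial glia and 3 astrocyte markers passed an adjusted p-value of 0.05. All of these were lower (against 7.05% of all tested genes) and 0 were higher (against 7.12%). No inhibitory neuron or oligodendrocyte lineage marker passed. The part of these differences in the channel genes' values was not tested.

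Of the L-type genes, CACNA1C (CaV1.2) was lower with Aβ42 and CACNA1D (CaV1.3) was not called. CACNA1C measured 60.8, 59.3 and 60.4 CPM in vehicle and 52.0, 52.9 and 53.9 CPM in Aβ42 organoids. The groups were separated by more than their spread. Its log2 fold change was -0.18 ± 0.05 (adjusted p = 0.0891, and 0.0488 with the replicate block, close to the threshold). The block with a correction for transcript length gave -0.13, which did not pass. CACNA1D measured 34.7 to 36.0 CPM in vehicle and 33.2 to 39.7 CPM in Aβ42 organoids (log2 fold change 0.08).

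The 3 CaV2 genes, which serve transmitter release, all had negative fold changes, and none passed. CACNA1E (R-type) measured 107, 106.0 and 99.2 CPM in vehicle and 104, 91.1 and 86.7 CPM in Aβ42 organoids, with Aβ42 replicate 1 inside the vehicle range. Its log2 fold change was -0.15 ± 0.07 (adjusted p = 0.213). CACNA1A (P/Q-type) and CACNA1B (N-type) were at -0.10 and -0.11, with groups that overlapped. Summed over the 3 genes in TPM, the CaV2 level was 41.2 to 43.3 in vehicle and 36.3 to 39.3 in Aβ42 organoids, without overlap and with a ratio of means of 0.894. In log2(TPM + 1) the median log2 fold change over all tested genes was itself -0.040.

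The α2δ gene CACNA2D1, whose product brings high-voltage-activated channels to the membrane and binds gabapentin, measured 254, 304 and 287 CPM in vehicle and 245, 255 and 236 CPM in Aβ42 organoids. Aβ42 replicate 2 lay above vehicle replicate 1, so the groups overlapped by this 1 library. CACNA2D1's log2 fold change was -0.20 ± 0.07 (adjusted p = 0.118, and 0.0244 with the replicate block). The within-pair log2 ratios were -0.05, -0.25 and -0.28. CACNA2D3 (0.11) and CACNA2D2 (0.01) had wide intervals and did not pass.

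Calcium channel β subunits bind the α1 intracellular loop and shield the channel from degradation. CACNB3, the most abundant, measured 94.2, 92.8 and 89.8 CPM in vehicle and 88.3, 89.3 and 94.9 CPM in Aβ42 organoids. The ranges nearly coincided, and the 95% interval of the fold change was 0.911 to 1.06. CACNB1 measured 66.6, 63.3 and 64.0 CPM in vehicle and 75.9, 63.1 and 74.4 CPM in Aβ42 organoids, with Aβ42 replicate 2 below every vehicle library. Its log2 fold change was 0.14 ± 0.07 (adjusted p = 0.263), and 0.22 without Aβ42 replicate 2 (adjusted p = 0.0126). CACNB2 was at 0.21 and CACNB4 at 0.03, and neither passed.

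No sodium channel β gene passed in either fit. SCN3B, the most abundant member of the whole group, measured 251, 261 and 239 CPM in vehicle and 251, 231 and 253 CPM in Aβ42 organoids, with a 95% interval of the fold change of 0.903 to 1.06. SCN2B measured 10.5, 11.98 and 9.09 CPM in vehicle and 7.74, 9.68 and 8.94 CPM in Aβ42 organoids, which overlapped (-0.26 ± 0.13, adjusted p = 0.263). SCN4B was at -0.12.

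HCN genes did not pass in either fit. HCN3 measured 49.7, 50.5 and 52.4 CPM in vehicle and 59.2, 50.6 and 57.2 CPM in Aβ42 organoids. Aβ42 replicate 2 again fell among the vehicle values, with the other 2 above them. The log2 fold change was 0.13 ± 0.07 (adjusted p = 0.265), and 0.19 without Aβ42 replicate 2 (adjusted p = 0.0300). HCN2 and HCN4 were at 0.13 and -0.11. Exons of HCN3 overlap PKLR on the opposite strand, and the same kind of overlap was found for 17 of the 36 genes.

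NALCN measured 5.29, 7.30 and 7.62 CPM in vehicle and 5.24, 6.18 and 6.00 CPM in Aβ42 organoids. Vehicle replicate 1 lay among the Aβ42 values, and its log2 fold change was -0.21 ± 0.16 (adjusted p = 0.445). Its complex partners UNC79 and UNC80, large scaffold subunits, were at -0.17 ± 0.06 (adjusted p = 0.131, and 0.0480 with the replicate block) and 0.04 ± 0.08 (adjusted p = 0.774). NALCN exons overlap the antisense gene NALCN-AS1.

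In the composition of the calcium α1 transcripts the groups did not overlap for any of the 3 classes. The shares are parts of the same whole, so a larger T-type share lowers the others. In summed TPM the ratio of means was 1.25 for T-type, 0.894 for CaV2 and 0.951 for L-type genes. These ratios stand beside a median log2 fold change of -0.040 over all tested genes in log2(TPM + 1). T-type genes held 42.5%, 38.8% and 42.2% of the summed α1 TPM with vehicle and 51.1%, 46.3% and 49.2% with Aβ42. The share of CaV2 genes was 38.1%, 41.2% and 38.2% in vehicle and 31.9%, 35.1% and 32.9% in Aβ42 organoids, and that of L-type genes 19.7% and 17.8% on average. The summed α1 level itself was 105 to 112 TPM in vehicle and 103 to 123 TPM in Aβ42 organoids and overlapped.

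Within the sodium α genes SCN3A held 31.8% ± 0.901 of the summed TPM in vehicle and 28.3% ± 1.76 in Aβ42 organoids (SD, n = 3), while SCN8A held 21.8% ± 0.968 and 25.2% ± 1.98. The ratio of SCN8A to SCN2A was 0.548, 0.534 and 0.598 in vehicle and 0.669, 0.597 and 0.701 in Aβ42 organoids, where Aβ42 replicate 2 lay just inside the vehicle range. The ratio of SCN3A to SCN2A was 0.763, 0.844 and 0.842 in vehicle and 0.684, 0.788 and 0.737 in Aβ42 organoids and overlapped in the same way. The summed sodium α level was 112 to 129 TPM in vehicle and 104 to 110 TPM in Aβ42 organoids, without overlap.

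The share held by the most abundant gene was compared in each of 6 families with a 2-sided exact permutation test, which cannot give less than 0.1 with 3 libraries against 3. CACNA1H reached this smallest value, with 30.0% ± 1.41 of calcium α1 TPM in vehicle and 34.1% ± 1.16 in Aβ42 organoids (exact permutation p = 0.1, adjusted over the 6 families 0.6). For HCN3, CACNA2D1, CACNB3, SCN2A and SCN3B the share differed by -1.94 to 0.959 percentage points, with exact permutation p-values of 0.2 to 0.8. These differences depended on single libraries. With Aβ42 replicate 1 left out, that of HCN3 was 0.134 and that of CACNB3 -0.283. HCN3 reached 2.05 when Aβ42 replicate 3 was left out, and CACNB3 reached -3.07 when Aβ42 replicate 2 was. That of CACNA2D1 ran from -3.24 without vehicle replicate 1 to -1.12 without vehicle replicate 3. The sign changed for SCN2A without vehicle replicate 1 (0.281) and for SCN3B without vehicle replicate 2 (-0.018) or Aβ42 replicate 1 (-0.435).

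**Figure D4:**
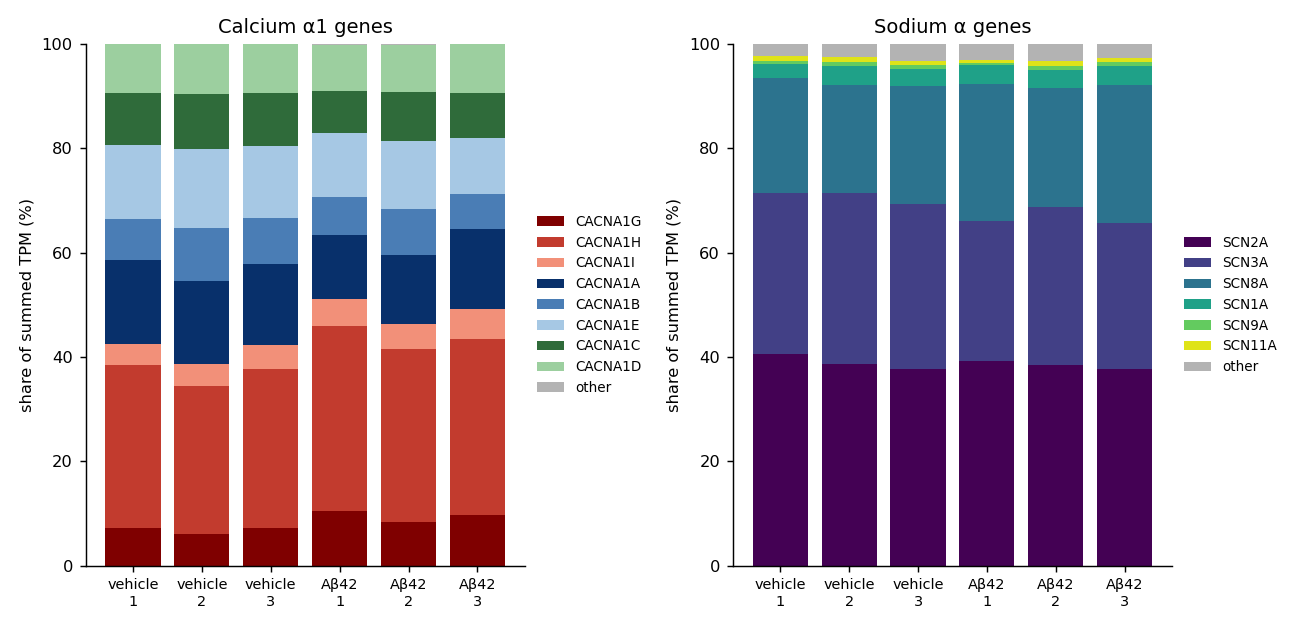
Share of the summed TPM (vertical axis, %) held by each calcium α1 gene (left) and each sodium α gene (right) in the 6 libraries, as stacked bars. Grey marks the summed share of the genes not drawn singly. The T-type genes (red shades) make up 38.8% to 42.5% of the left bars in vehicle and 46.3% to 51.1% in Aβ42 libraries.

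Channel genes are long, and fold changes in these libraries varied with transcript length. The median of the 31 members lay at the 91.5th percentile of relative transcript length, and 17 of them were among the longest 10% of tested genes. The median log2 fold change was -0.04 among those longest genes, against 0.06 in the shortest 10%. Of the 1385 longest genes 308 were lower (against 11.5% of all tested genes) and 138 higher (against 12.4%) at an unadjusted p-value under 0.05. Together these were 32.2% of the longest genes, against 23.9% of all tested genes and 22.6% of the members. With a length correction the members' median was 0.03 and that of the T-type genes went from 0.38 to 0.43. The T-type genes, with positive fold changes, lay at the 91.5th to 97.1st percentiles. SCN3A, CACNA1C and CACNA2D1, with negative ones, lay at the 94.8th, 99.0th and 90.6th. After the correction SCN3A was at -0.25, CACNA1C at -0.13 and CACNA2D1 at -0.16. The part of transcript length in these values was not tested.

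**Figure D5:**
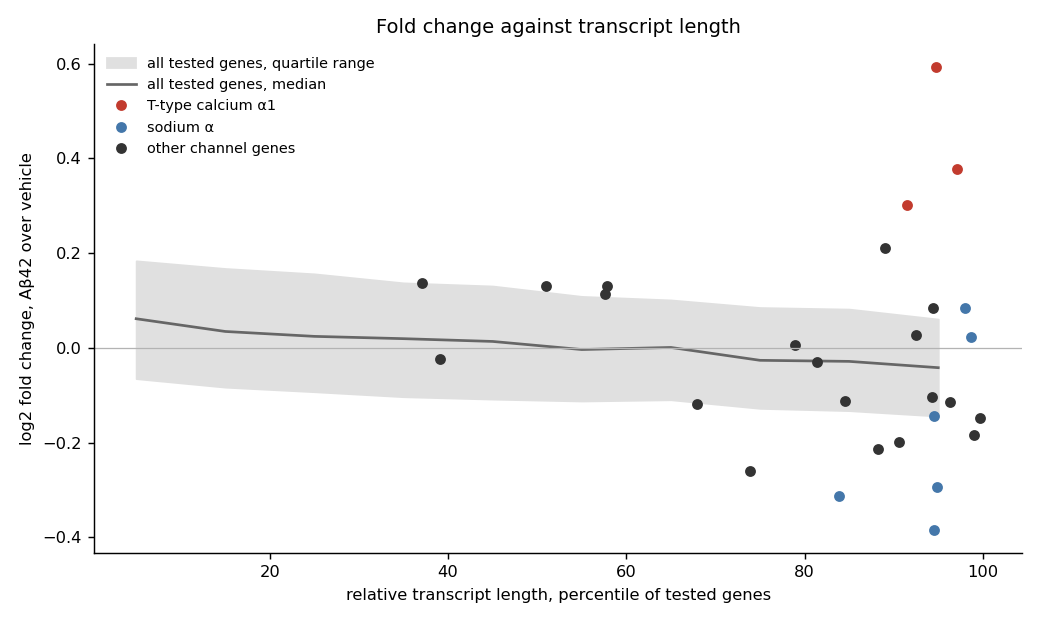
Log2 fold change, Aβ42 over vehicle, against the percentile of relative transcript length among tested genes, with the median (line) and quartile range (band) of all tested genes in 10 bins of length and 1 point for each tested channel gene reported here. The line runs from 0.06 in the shortest bin to -0.04 in the longest, and the 3 T-type genes (red) lie above the band.

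Other proteins anchor, traffic or modulate these channels, and 31 of 35 genes listed for that role were tested. None passed without the block, and 9 were under an unadjusted p-value of 0.05, 7 higher (against 12.4% of all tested genes) and 2 lower (against 11.5%). With the replicate block 5 rose (against 7.12% of all tested genes) and 2 fell (against 7.05%). The 3 higher genes with the smallest p-values were FGF11, an intracellular FGF homolog of the family that binds sodium channels (log2 fold change 0.29, adjusted p = 0.0770, and 0.00810 with the block), CACHD1, an α2δ-like protein (0.23, 0.0947 and 0.0236), and STAC2, an adaptor of L-type channels (0.86, 0.111 and 0.0125). STAC2 was at only 36 to 92 counts per library. The 3 lower genes were UNC79, FGF13 (-0.14, adjusted p = 0.140) and RIMS2, an active-zone protein that tethers CaV2 channels (-0.30, adjusted p = 0.214). PEX5L, the HCN trafficking subunit TRIP8b, was at -0.37 ± 0.16 (adjusted p = 0.227, and 0.0263 with the block), and ANK3, the ankyrin that gathers sodium channels at the axon initial segment, at 0.03 ± 0.06 (adjusted p = 0.775).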

How the data were processed

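Poly(A) RNA of 3 vehicle and 3 Aβ42 organoid libraries was sequenced. The authors deposited 1 table with, per gene and library, a read count and a TPM value. About 87% of the deposited count values were whole numbers, so they were treated as estimated counts (expected counts) and rounded. Per the submitters' processing notes FastQC, STAR 2.7.11b, featureCounts 2.0.6 and GRCh38 were used, and their roles and the strand setting are not given in the sources used here. Per the labels' protocols the library kit was stranded.

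Genes were filtered with filterByExpr, scaled by TMM and compared with edgeR 4.0.16 (quasi-likelihood test, robust, in R 4.3.3), with Benjamini-Hochberg adjustment over 13842 genes, a threshold of 0.05 and 2-sided tests. Confidence intervals of fold changes use the fit's degrees of freedom. Limma 3.58.1 (voom with quality weights, and log2(TPM + 1)) and DESeq2 1.42.0 served as alternatives. Scripts were tested on simulated data. Total counts of 16465390 to 16742958 per library and 3 replicates per group set the precision. No pair of libraries agreed within sampling noise. Pairs were compared by the squared count difference relative to sampling noise, averaged over genes. Aβ42 replicate 2 differed by 3.16, 7.70 and 4.58 from vehicle replicates 1 to 3. From Aβ42 replicates 1 and 3 it differed by 9.40 and 8.48. PCR copies are not marked, so counting limits cover counting error only.

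Deviations from group means correlated by 0.181, 0.388 and 0.129 (12186 genes) between libraries numbered 1, 2 and 3, so by the threshold of 0.1 the numbers were taken to pair them. Between numbers 1 and 3 the crossed values were 0.154 and 0.177, so the data set only number 2 apart. The labels do not say that a number marks a shared culture, and this pairing rests on the data alone. Named in full were the 6 tested members of lowest p in each direction, the most abundant gene of each family and NALCN, and of the partners the 3 smallest in each direction with UNC79, UNC80, PEX5L and ANK3. A few named genes are left out of the text and figures. SCN8A was added after its values were seen, because its call changed without Aβ42 replicate 2. The members and lists were chosen with earlier results of these data known.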

Additional observations from a re-analysis of the deposited data

How the results depend on the processing

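Over all tested genes no gene passed without the block. Without the low count filter 360 passed, with DESeq2 814, and with limma-voom and sample quality weights 2457. With the replicate block 1962 passed, and with the replicate block and a length correction 2002. Leaving out Aβ42 replicate 2 gave 3224, and leaving out any other single library gave 0. Of the channel genes 0 passed without the block (7 at an unadjusted p-value under 0.05, or 22.6% against 23.9% of all tested genes). Without the filter 1 passed (2.86% of members, against 2.07% of all tested genes), with DESeq2 3 (9.68%, against 5.88%). With quality weights 6 passed (19.4%, against 17.8%) and with the replicate block 6 (19.4%, against 14.2%). Block and length correction together gave 5 (16.1%, against 14.5%). Without Aβ42 replicate 2, 9 passed (29%, against 23.1%), and without any other single library 0. The highest values came without Aβ42 replicate 2, whose quality weight was 0.395, against 1.001 to 1.63 in the other libraries. Unadjusted p-values under 0.05 were found for 12 members with quality weights (38.7%, against 34.9% of all tested genes) and for 5 to 16 when 1 library was left out, and 8 to 17 members did not overlap. The upper counts came without Aβ42 replicate 2, where 51.6% of members and 37% of all tested genes were under that p-value and 54.8% and 53.5% did not overlap. Without vehicle replicates 1, 2 and 3 the member shares under that p-value were 25.8%, 16.1% and 32.3%, against 21.6%, 13.7% and 17.6% of all tested genes. Without Aβ42 replicates 1 and 3 they were 25.8% and 22.6%, against 15.1% and 13.4%. In these fits 25.8% to 41.9% of members did not overlap, against 32% to 41.3% of all tested genes. Without both libraries numbered 2 (chosen after seeing the data), 2316 genes and 5 members passed, 11 members were under an unadjusted p-value of 0.05 (35.5%, against 31.5% of all tested genes) and 18 did not overlap (58.1%, against 59.6%). The members' median log2 fold change ran from -0.058 to 0.028 when 1 library was left out.

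Over 18 alternatives CACNA1G (0.45 to 0.74), CACNA1H (0.22 to 0.39), CACNA1I (0.28 to 0.50), SCN3A (-0.35 to -0.23), CACNA1C (-0.20 to -0.13) and CACNA2D1 (-0.27 to -0.14) kept their sign, and they passed an adjusted p-value of 0.05 in 6, 6, 5, 7, 3 and 4 of them. SCN2A passed in 0, with adjusted p-values of 0.0727 to 0.413. SCN3B changed sign, to 0.0049 with quality weights and 0.042 without the libraries numbered 2, and ran from -0.061 to 0.011 when 1 library was left out. Which library sets these values was read from leaving each out, and the cause was not tested. The low counts of SCN9A and SCN11A (under 5 CPM) limit their precision.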
